A study of Mus musculus with 8 samples.

Results

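The RasGRP exchange factors and a group of Ras regulators were examined in regulatory T (Treg) cells of the mouse large intestine with and without the aryl hydrocarbon receptor, Ahr. The 9 genes were taken from the gene count table by symbol, 9 of 19191 gene rows, and comprised the exchange factors Rasgrp1, Rasgrp2, Rasgrp3 and Rasgrp4, the Ras-like GTPases Rasd1 and Rasd2, and the GTPase-activating proteins Rasa1, Rasa2 and Nf1. They were chosen by family with results of the knockout against wild-type contrast known, so their differences in that contrast are given as a description and not as a test. Treg cells are CD4 T cells that express Foxp3 and restrain other immune cells. They had been sorted by flow cytometry from lamina propria of C57BL/6 mice, and total RNA depleted of ribosomal RNA was sequenced in 2 libraries per genotype. The libraries called KO had the genotype Ahrf/- Foxp3Yfp-Cre, a floxed Ahr allele over a null allele. Those called WT had the genotype Ahrf/+ Foxp3Yfp-Cre, a floxed allele over an intact allele. Both carried Cre recombinase made from the Foxp3 locus, so WT Treg cells kept 1 working Ahr copy, and cells outside the Foxp3 lineage also differed by the null allele. Effects within Treg cells and effects of the surrounding tissue therefore cannot be told apart. The labels used here give neither the age of the mice nor whether replicates came from separate animals.

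Ras proteins are membrane switches that are active when bound to GTP. Exchange factors load them with GTP, and GTPase-activating proteins return them to the GDP-bound state. RasGRP proteins carry a domain that binds diacylglycerol, the lipid that phospholipase C makes after the T cell receptor is engaged, and so connect the receptor to Ras and the ERK kinases. In T cells Rasgrp1 is the RasGRP gene best known for this role.

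Total gene counts ran from 30993483 to 53438828 in KO and from 26862922 to 62402450 in WT. Levels are in CPM, counts per 1000000 counts of the library after correction for composition. Of the T and Treg cell markers, 8 of 8 were detected, and their summed level was 6895 to 7405 CPM in KO and 6303 to 6564 CPM in WT. The largest part was Ctla4, at 3773 and 3620 CPM in KO and 3196 and 3045 CPM in WT. Log2 fold changes of Cd3e (-0.12 ± 0.20), Ikzf2 (-0.05 ± 0.13) and Foxp3 (-0.06 ± 0.09) were slightly negative. Those of Ctla4 (0.24 ± 0.10), Cd4 (0.18 ± 0.09), Cd3d (0.10 ± 0.10), Cd3g (0.08 ± 0.10) and Il2ra (0.04 ± 0.18) were positive. Foxp3 itself stood at 250 and 259 CPM in KO, against 280 and 252 CPM in WT. Ahr, the targeted gene, had a log2 fold change of -0.09 ± 0.09 (KO over WT, standard error), but a count over the whole gene does not show a deleted exon and so checked neither the deletion nor the labels. Replicate 2 of each genotype was sequenced more deeply than replicate 1. It also held more RNA of stromal markers (68.1 CPM in KO and 57.0 CPM in WT) than replicate 1 (8.83 CPM in KO and 11.2 CPM in WT), so ratios of KO over WT are also given within each replicate number. Among markers of other cells, epithelial sums were 17.5 and 23.3 CPM in KO and 18.8 and 19.1 CPM in WT, and macrophage and monocyte sums of 70.1 and 39.4 CPM in KO and 91.4 and 51.0 CPM in WT. In bulk samples fewer cells of a type and less RNA per cell cannot be told apart.

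The start sites of these genes were examined for the core letters of the element that Ahr binds, GCGTG, on either strand, in windows from 250 bases before to 50 bases after each annotated start (RefSeq, GRCm38.p6). Of the 9 genes, 7 matched the promoter table, with 9 windows, and Rasgrp4 and Rasd1 did not. The motif was found in 3 of the 9 windows, and 32.4% of all 32851 windows of this length held it. Both Rasgrp2 windows had a single match, and the Rasa1 window had matches that began 178 and 124 bases before the start. No match was found in the windows of Rasgrp1, Rasgrp3, Rasd2, Rasa2 and Nf1. The windows of Rasd2, the gene with the largest difference between genotypes, and of Rasa1, the gene with the most matches in a window, are printed 5′ to 3′ with each match in capitals. Rasd2 lies on the plus strand at chr8:75213694-75213993 and Rasa1 on the minus strand at chr13:85289437-85289736.
Rasd2: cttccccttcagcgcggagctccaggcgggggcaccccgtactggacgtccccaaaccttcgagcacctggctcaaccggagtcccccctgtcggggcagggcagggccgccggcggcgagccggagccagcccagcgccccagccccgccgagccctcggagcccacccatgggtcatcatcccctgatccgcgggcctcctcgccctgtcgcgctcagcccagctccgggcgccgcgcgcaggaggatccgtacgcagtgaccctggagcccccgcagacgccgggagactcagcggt
Rasa1: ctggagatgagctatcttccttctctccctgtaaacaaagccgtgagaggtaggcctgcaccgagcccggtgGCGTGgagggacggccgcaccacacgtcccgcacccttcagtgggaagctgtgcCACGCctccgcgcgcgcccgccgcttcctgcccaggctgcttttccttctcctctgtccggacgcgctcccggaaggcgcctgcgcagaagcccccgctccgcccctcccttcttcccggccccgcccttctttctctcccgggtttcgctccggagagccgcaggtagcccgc
The Rasd2 window thus holds no capitals. A match is a run of letters and not a measured binding site, and the absence of a match in these 300 bases carries no information about sites elsewhere.

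Of the 9 genes, Rasd2 was higher in KO and Rasgrp4 lower in both replicates, and the other 7 had estimates between -0.24 and 0.04 on the log2 scale. The quasi-likelihood test of edgeR called 0 of 14274 tested genes (0%) at an adjusted p (Benjamini-Hochberg) under 0.05. At an unadjusted p under 0.05 there were 407 genes (2.85%), and limma-voom likewise called 0. None of the 9 was among edgeR's calls. DESeq2 called 48 of 17996 genes (0.267%), of which 30 (0.167%) were higher and 18 (0.100%) lower in KO. Among the 9 genes DESeq2 called Rasd2 higher and Rasgrp4 lower. The authors' deposited table held 66 of 19191 genes (0.344%) under an adjusted p of 0.05, 31 of them (0.162%) higher and 35 (0.182%) lower in KO, in a comparison that it does not name and that was read as KO against WT. That deposited table lists Rasd2 at 0.000876, Rasgrp4 at 0.000896, Nf1 at 0.822 and the other 6 genes at 0.889. Since the choice of genes used this contrast, nothing is read from these counts or from the agreement between replicates.

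**Figure D1:**
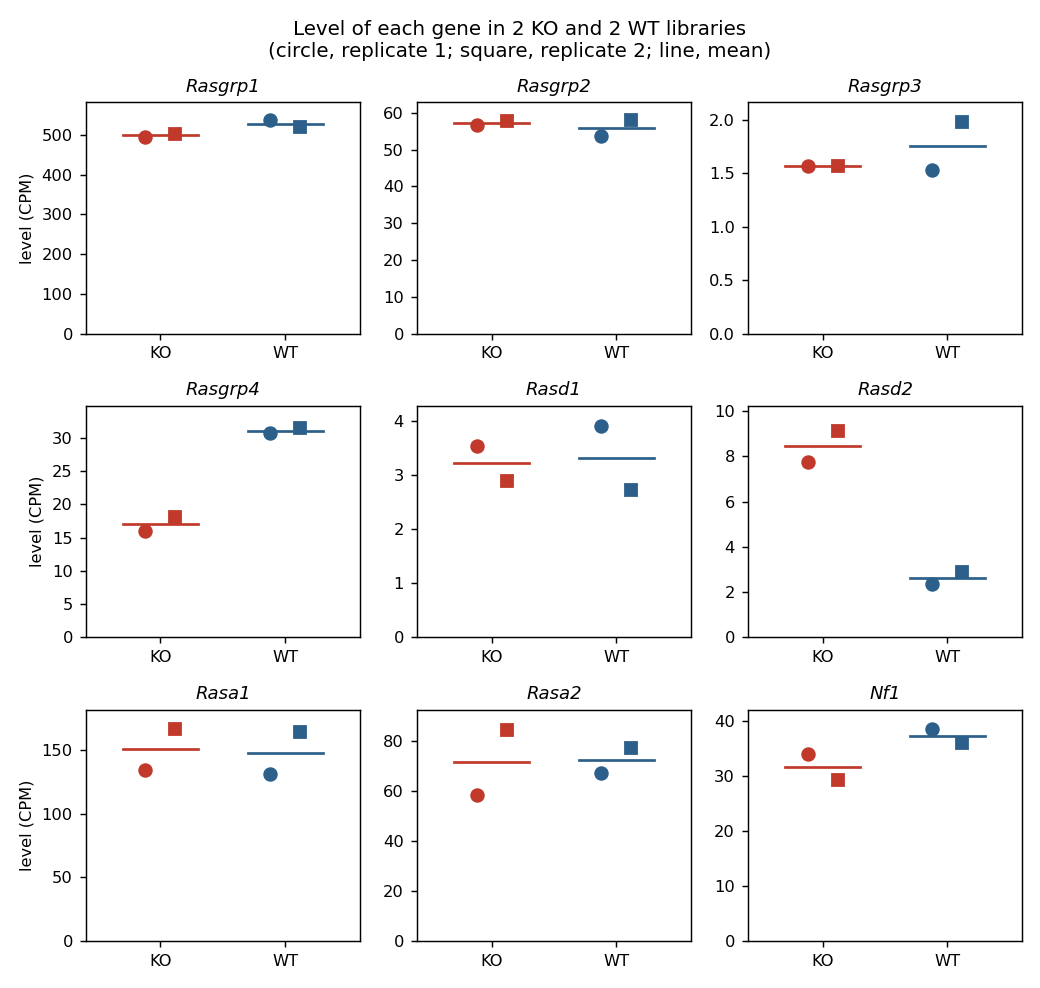
Level of each of the 9 genes in CPM (vertical axes, each from 0) in the 2 KO and 2 WT libraries; circles are replicate 1, squares replicate 2 and lines the group means. Rasd2 lies higher in both KO libraries (7.76 and 9.14 CPM) than in both WT libraries (2.35 and 2.89 CPM), and Rasgrp4 lower (16.0 and 18.2 CPM in KO, 30.8 and 31.5 CPM in WT).

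Among the exchange factors, Rasgrp1 had similar levels in both genotypes. It links the T cell receptor to Ras (chromosome 2, 117105729 to 117168737, minus strand, mm9). Its level was 496 and 502 CPM in KO, against 537 and 520 CPM in WT. Both KO libraries lay below both WT libraries, by a small margin. The log2 fold change was -0.08 ± 0.08, with a 95% interval from -0.29 to 0.12. It had 15208 and 26519 counts in KO and 14411 and 33125 counts in WT.

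Rasgrp2, also called CalDAG-GEFI, acts mainly on the Ras relative Rap1 and is best known for integrin activation in platelets (chromosome 19, 6399340 to 6415216, plus strand). It stood at 56.7 and 57.7 CPM in KO, against 53.6 and 58.0 CPM in WT. The WT libraries enclosed the KO libraries. The log2 fold change was 0.04 ± 0.10 (95% interval -0.22 to 0.29). Summed markers of megakaryocytes and platelets were low, at 2.57 and 4.31 CPM in KO and 4.36 and 3.77 CPM in WT.

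Rasgrp3, known from B cells and endothelium, was close to the lower end of what was tested, with 48 and 83 counts in KO and 41 and 126 counts in WT (chromosome 17, 75835245 to 75928383, plus strand). These are 1.56 and 1.57 CPM in KO, against 1.53 and 1.98 CPM in WT. The groups overlapped. At this depth the log2 fold change of -0.17 ± 0.33 had a 95% interval from -0.99 to 0.65, and differences of this size could not be told from none. Without WT replicate 2, its highest library, the estimate was 0.04. The 5 B cell markers summed to 16.2 and 12.2 CPM in KO and 17.0 and 18.7 CPM in WT, and the 5 endothelial markers to 108 and 117 CPM in KO and 110 and 121 CPM in WT. The endothelial sum was almost all Pecam1, at 105 and 107 CPM in KO and 107 and 113 CPM in WT. The part of the B cell and endothelial markers in the Rasgrp3 level was not tested.

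Rasgrp4, an exchange factor best known from mast cells, was the RasGRP gene with the largest difference (chromosome 7, 29919873 to 29938980, plus strand). It had 491 and 960 counts in KO and 826 and 2004 counts in WT. The level was 16.0 and 18.2 CPM in KO, against 30.8 and 31.5 CPM in WT. Every KO library lay well below every WT library (17.1 ± 1.53 CPM in KO and 31.1 ± 0.505 CPM in WT, SD, n = 2). KO stood at 55.0% of WT by the fit, a log2 fold change of -0.86 ± 0.11 (95% interval -1.15 to -0.58). Within replicate 1 the log2 ratio was -0.94, and within replicate 2 it was -0.79. DESeq2 did not call Rasgrp4 in any of the 4 fits without a library, in which its estimate ran from -0.96 to -0.79.

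Mast cell and basophil markers were set beside Rasgrp4. Their sum was 25.5 and 24.4 CPM in KO and 27.3 and 27.1 CPM in WT, with 6 of 7 genes detected. Fcer1a, a subunit of the IgE receptor that defines these cells, had a count of 0 in all 4 libraries. Ms4a2, of the same list, had 5 and 10 counts in KO and 2 and 13 counts in WT. Mcpt1 had 0 and 0 counts in KO and 0 and 31 counts in WT, and Mcpt2 0 and 1 in KO and 0 and 0 in WT. Cpa3, the mast cell carboxypeptidase, had 5 and 2 counts in KO and 2 and 8 counts in WT. The sum consisted mostly of Hdc, which makes histamine, and of Kit, the stem cell factor receptor, both named after their values were seen. Hdc stood at 19.0 and 19.3 CPM in KO, against 14.9 and 15.6 CPM in WT. Kit stood at 6.16 and 4.92 CPM in KO, against 12.3 and 10.7 CPM in WT, below WT like Rasgrp4. The part of these markers in the Rasgrp4 difference was not tested. The Rasgrp4 row overlaps the last 1451 bases of Fam98c on the opposite strand, and the use of strand in counting is not given in the sources used here. Fam98c had 14.7 and 17.7 CPM in KO, against 18.5 and 18.1 CPM in WT, a log2 fold change of -0.17 ± 0.13.

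Rasd1 and Rasd2 encode Ras-like GTPases of a separate branch and are not exchange factors. Rasd1, known as Dexras1 and induced by dexamethasone, was low (chromosome 11, 59776683 to 59778446, minus strand). It stood at 3.55 and 2.89 CPM in KO, against 3.91 and 2.73 CPM in WT. In each genotype replicate 1 was the higher library, and the genotypes overlapped. The log2 fold change was -0.04 ± 0.29 (95% interval -0.77 to 0.69).

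Rasd2, known as Rhes and best known from the striatum of the brain, showed the largest difference of the 9 genes (chromosome 8, 77737843 to 77748012, plus strand). It had 238 and 483 counts in KO and 63 and 184 counts in WT. The level was 7.76 and 9.14 CPM in KO, against 2.35 and 2.89 CPM in WT. No library of one genotype came near those of the other (8.45 ± 0.977 CPM in KO and 2.62 ± 0.384 CPM in WT, SD, n = 2). The fitted fold was 3.21 (log2 fold change 1.68 ± 0.21, 95% interval 1.15 to 2.21). Within replicate 1 the log2 ratio was 1.71, and within replicate 2 it was 1.65. As for Rasgrp4, DESeq2 no longer called the gene when any of the 4 libraries was left out, and the estimate then ran from 1.55 to 1.85.

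Markers of neurons and glia were nearly absent, with sums of 1.99 and 1.82 CPM in KO and 1.64 and 1.76 CPM in WT, and of the 6 genes 2 lay higher in both KO libraries than in both WT libraries and 1 lower. Tubb3 stood at 0.684 and 0.530 CPM in KO, against 0.410 and 0.298 CPM in WT, S100b at 0.261 and 0.322 CPM in KO, against 0.186 and 0.141 CPM in WT, and Snap25 at 0 CPM in KO, against 0.0372 and 0.0628 CPM in WT. Of the 6 epithelial markers 4 lay higher in both KO libraries and 2 lower. Over all tested genes the higher pattern was seen in 13.5% and the lower in 13.4%. Counts were low for some markers, such as Krt20, not tested, with 4 and 18 counts in KO and 2 and 0 counts in WT. Krt8, an epithelial keratin, stood at 1.01 and 3.86 CPM in KO, against 0 and 0.126 CPM in WT, and Epcam, the largest part of the epithelial sum, at 12.2 and 13.7 CPM in KO, against 14.7 and 14.5 CPM in WT. The part of these markers in the Rasd2 difference was not tested. The table holds no row that overlaps Rasd2. Its nearest neighbours were Mcm5, a replication helicase subunit 85.5 kb away, and Hmox1, heme oxygenase 1, 113 kb away on the side of lower coordinates, and Gm10358 181 kb and 1700007B14Rik 225 kb away on the other side. Mcm5 had a log2 fold change of 0.12 ± 0.27, Hmox1 0.09 ± 0.17 and Gm10358 0.17 ± 0.19, all 3 with overlapping groups, and 1700007B14Rik held 5 counts over all libraries and was not tested.

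**Figure D2:**
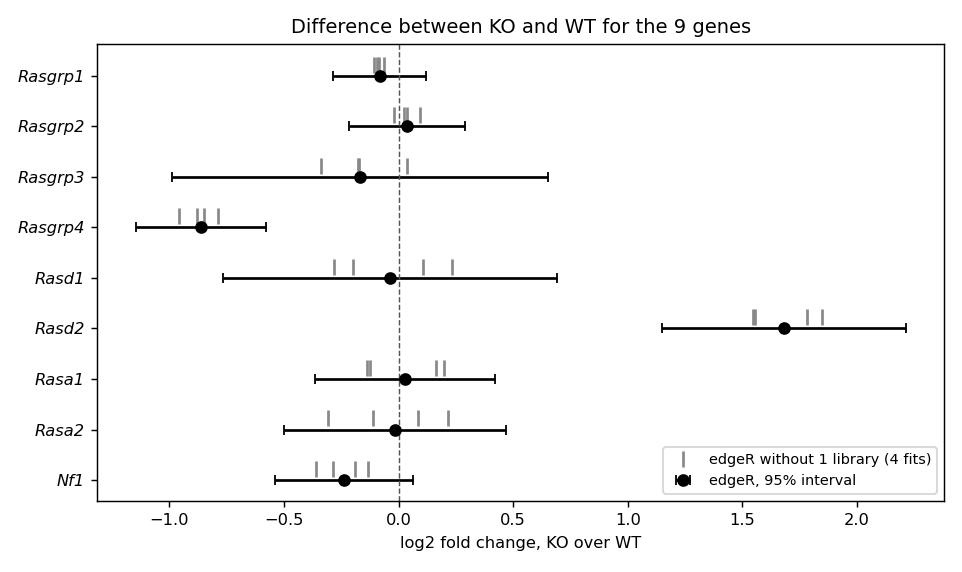
Log2 fold change of KO over WT (horizontal axis) for the 9 genes; black points and bars are the edgeR estimate and its 95% interval, and grey ticks the estimates without each library in turn. The intervals of Rasd2 (1.15 to 2.21) and Rasgrp4 (-1.15 to -0.58) lie away from 0, and those of the other 7 genes include 0. They are not adjusted, and the genes were chosen with this contrast known, so the intervals describe and do not test. The adjusted p of edgeR was 0.481 for Rasd2 and 0.524 for Rasgrp4.

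The GTPase-activating proteins differed little between genotypes. Rasa1, the p120 RasGAP (chromosome 13, 85354304 to 85429091, minus strand), stood at 135 and 167 CPM in KO, against 132 and 165 CPM in WT. The libraries grouped by replicate number rather than by genotype. The log2 fold change was 0.03 ± 0.16 (95% interval -0.37 to 0.42), and its sign turned without WT replicate 1 or without KO replicate 2, with a range from -0.14 to 0.20 over the fits without a library, and with library totals as the only scaling it was -0.0041. Rasa1 overlaps Ccnh on the opposite strand by 8771 bases, and Ccnh had a log2 fold change of -0.22 ± 0.13.

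Rasa2, a RasGAP of the GAP1 family (chromosome 9, 96439719 to 96532036, minus strand), stood at 58.5 and 84.5 CPM in KO, against 67.4 and 77.2 CPM in WT. The KO libraries enclosed the WT libraries, and replicate 2 was the higher in each genotype. The log2 fold change was -0.02 ± 0.19 (95% interval -0.50 to 0.47). The ratio within replicate 1 was -0.21 and within replicate 2 it was 0.13, opposite in sign.

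Nf1 encodes neurofibromin, a large RasGAP whose loss causes neurofibromatosis in humans (chromosome 11, 79153294 to 79395114, plus strand). Its level was 34.0 and 29.3 CPM in KO, against 38.5 and 36.0 CPM in WT. Both KO libraries lay below both WT libraries. The log2 fold change was -0.24 ± 0.12, with a 95% interval from -0.54 to 0.06 that includes 0, and KO stood at 84.8% of WT. Without KO replicate 1 the estimate was -0.36. The Nf1 row spans Evi2a, Evi2b and Omg on the opposite strand. Of these, Evi2a (0.00 ± 0.10), Evi2b (-0.04 ± 0.14) and Omg (-0.54 ± 0.47) had log2 fold changes whose intervals include 0.

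Across the 9 genes the groups did not overlap in 4, against 27.0% of tested genes. The 9 were chosen with this contrast known, so nothing is read from that count. KO lay above WT for Rasd2, a pattern seen in 13.5% of tested genes, and below WT for Rasgrp1, Rasgrp4 and Nf1, a pattern seen in 13.4%. Of the estimates 3 were positive and 6 negative, with a median of -0.04, against a median of 0.01 over all genes tested. The median size without regard to sign was 0.08 for the 9 genes and 0.10 for all genes tested.

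**Figure D3:**
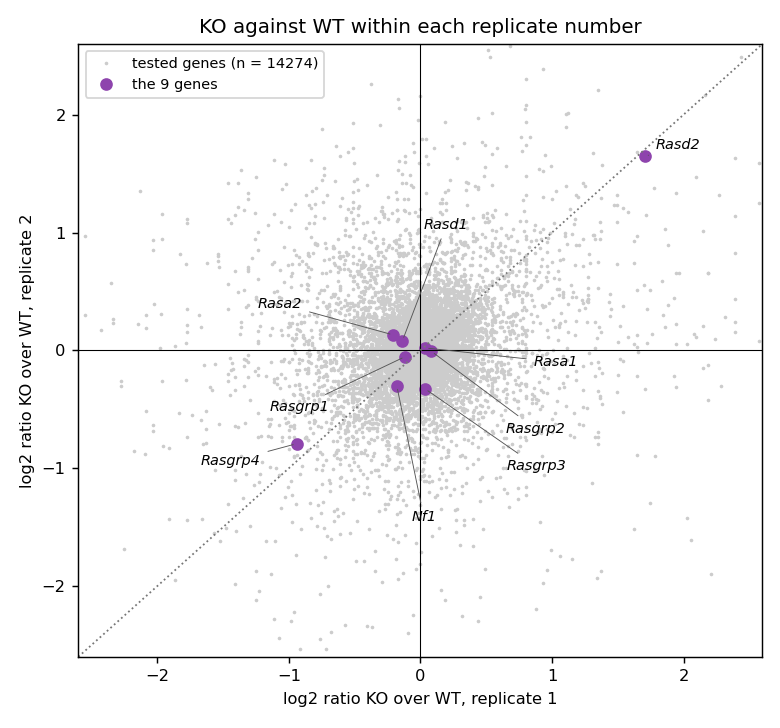
Log2 ratio of KO over WT within replicate 1 (horizontal) and within replicate 2 (vertical); purple points are the 9 genes, grey points all tested genes (65 lie outside the axes) and the dotted line marks equal ratios. Rasd2 (1.71 and 1.65) and Rasgrp4 (-0.94 and -0.79) lie near the dotted line away from the centre, and the other 7 lie close to the centre.

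The choice of genes did not use differences between the replicates. For Rasd1, Rasa1 and Rasa2 these were larger in size, in both genotypes, than the fitted difference between genotypes. A replicate ratio compares 1 library with 1, and the fitted difference compares 2 with 2. For Rasa1 the log2 ratio of replicate 2 over replicate 1 was 0.31 in KO and 0.32 in WT. Rasa2 had 0.53 in KO and 0.19 in WT, and Rasd2 had 0.24 in KO and 0.30 in WT. Rasd1 went the other way, with -0.29 in KO and -0.51 in WT, as did Nf1 with -0.22 in KO and -0.10 in WT. Rasgrp1 had 0.02 in KO and -0.04 in WT, and Rasgrp2 0.02 in KO and 0.11 in WT. Rasgrp3 had 0.01 in KO and 0.36 in WT, and Rasgrp4 0.18 in KO and 0.03 in WT. These replicate differences went with the larger stromal marker sum of replicate 2 and with a larger share of counts on Lars2, a mitochondrial leucyl-tRNA synthetase gene, in replicate 2 (0.724% in KO and 1.66% in WT) than in replicate 1 (0.0633% in KO and 0.0367% in WT). The endothelial sum was mostly Pecam1, and the other 4 endothelial markers summed to 10.3 CPM in KO and 7.82 CPM in WT in replicate 2, against 2.48 CPM in KO and 2.53 CPM in WT in replicate 1. Their part in the replicate differences was not tested.

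**Figure D4:**
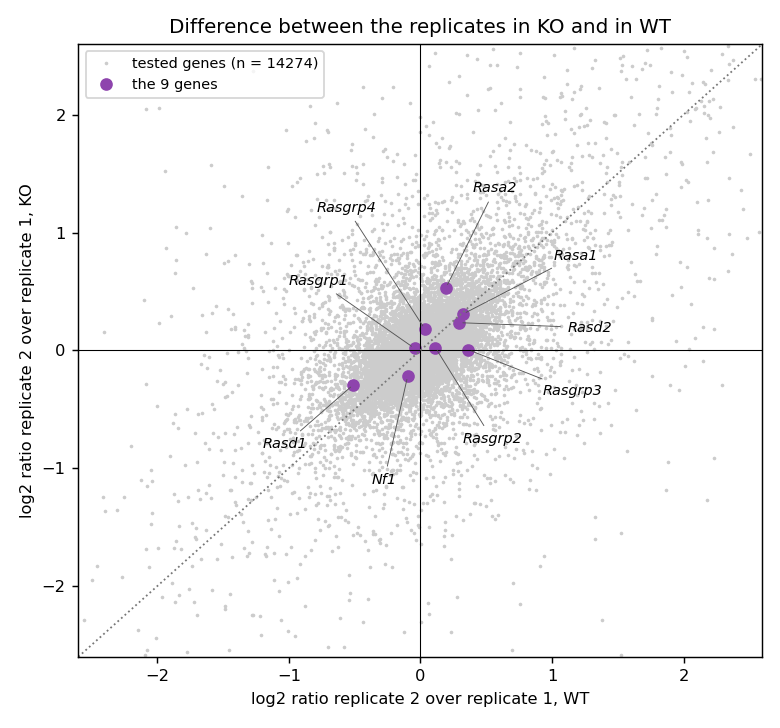
Log2 ratio of replicate 2 over replicate 1 in KO (vertical) and in WT (horizontal); purple points are the 9 genes, grey points all tested genes (251 lie outside the axes) and the dotted line marks equal ratios. Rasa1 (0.31 in KO, 0.32 in WT) and Rasd1 (-0.29 in KO, -0.51 in WT) moved the same way in both genotypes, and Rasgrp1 lies near the centre.

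The tested genes whose pattern over the 4 libraries was most like that of Rasd2 were Wnt11, a secreted Wnt ligand, Mab21l1 and Rbpjl. Likeness was the root mean square difference in log2 CPM after centring each gene on its mean. It was 0.14, 0.15 and 0.15 for these genes, and 0 genes came within 0.10. Wnt11 had 26 and 64 counts in KO and 8 and 24 counts in WT, Mab21l1 had 29 and 48 counts in KO and 5 and 19 counts in WT, and Rbpjl had 9 and 16 counts in KO and 2 and 6 counts in WT. All 3 were higher in both KO libraries, which follows from their choice by likeness to Rasd2 and is no separate result. Their counts were far lower than those of Rasd2. For Rasgrp1 the nearest were Arhgap5 (0.0040), Ensa (0.0054) and Ipo9 (0.0060), and 4286 tested genes came within 0.10, so its flat pattern is common.

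Genes that act with these regulators were taken from 7 lists of the Ras pathway, with 105 of 107 genes found and 99 tested. Of these 99, 60 had a positive and 39 a negative log2 fold change, with a median of 0.03, against 52.0% positive over all genes tested. None was called by edgeR or DESeq2. At an unadjusted p under 0.05 by edgeR there were 3 of the 99 genes, a share near the 2.85% of all tested genes. These were Rap2a, Dusp2 and Dusp6, all higher in KO. Both KO libraries lay above both WT libraries for 23 genes and below for 13, patterns seen in 13.5% and 13.4% of all tested genes.

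Among Ras-family GTPases 12 of 19 tested genes were higher and 7 lower, with a median log2 fold change of 0.07. Rap2a, a Rap GTPase, stood at 53.5 and 54.0 CPM in KO, against 40.0 and 40.0 CPM in WT. The replicates of each genotype almost coincided, and the log2 fold change was 0.43 ± 0.10. Rap2a was named for its low edgeR p (0.0056 unadjusted, 0.9999 adjusted), so the closeness of its replicates is no separate result. Rras2, which encodes the Ras relative TC21, had the lowest p among those lower in KO, with -0.22 ± 0.13.

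The other exchange factors had 6 genes higher and 9 lower (median 0.00, 15 tested). Their genes of lowest p were Rasgrf1 among the higher (0.74 ± 0.57) and Rasgrf2 among the lower (-0.35 ± 0.19). The other GTPase-activating proteins had 8 genes higher and 7 lower (median 0.01). There the genes of lowest p were the Rap regulators Sipa1l1 (0.16 ± 0.10) and Sipa1 (-0.12 ± 0.09).

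Upstream of RasGRP proteins lie the adaptors and the diacylglycerol kinases, which remove the lipid that RasGRP proteins bind. In that list 11 of 16 genes were higher and 5 lower (median 0.07). The diacylglycerol kinase gene Dgkh (-0.25 ± 0.10) and the adaptor gene Grap2 (0.23 ± 0.16), which encodes Gads, had the lowest p in each direction. The Raf-MEK-ERK cascade downstream had 8 of 12 genes higher (median 0.02), and Mapk3, which encodes the kinase ERK1, had the lowest p among the lower genes (-0.16 ± 0.12).

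Feedback inhibitors of Ras and ERK signalling had 9 of 11 tested genes higher and 2 lower, with a median of 0.13. Dusp2, a phosphatase of ERK and p38 kinases, stood at 214 and 223 CPM in KO, against 180 and 190 CPM in WT (log2 fold change 0.24 ± 0.09). Dusp6, the cytoplasmic ERK phosphatase, stood at 166 and 216 CPM in KO, against 143 and 153 CPM in WT (0.37 ± 0.14). For both genes KO lay above WT without overlap, a pattern seen in 13.5% of tested genes. Both were named by unadjusted p or after their values were seen, so this is no separate result. Spry2, a Sprouty gene, had the lowest p among the lower genes, with -0.45 ± 0.50. Its counts were low, at 15 and 24 in KO and 14 and 48 in WT. The other lower gene, Dusp4, stood at 761 and 756 CPM in KO, against 845 and 767 CPM in WT (-0.09 ± 0.09). The Rassf and Rin effectors had 6 genes higher and 5 lower (median 0.00). Their range was the widest of the 7 lists, from -1.08 ± 0.75 (Rassf4) to 1.49 ± 0.72 (Rassf8), both genes of low counts. Rassf4 had 23 and 25 counts in KO and 56 and 34 counts in WT, with overlapping groups. Rassf8 stood at 0.880 and 1.10 CPM in KO, against 0.596 and 0.157 CPM in WT. Rin2 had the lowest p among the lower genes of that list, with -0.46 ± 0.24.

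**Figure D5:**
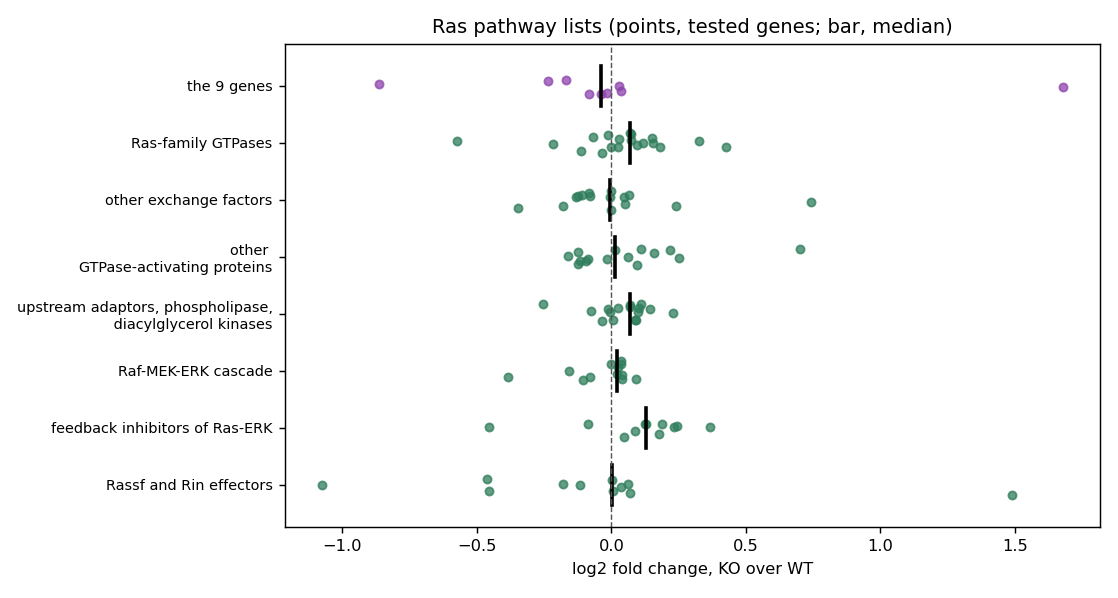
Log2 fold change of KO over WT (horizontal axis) of each tested gene in the 9 genes (purple) and in the 7 pathway lists (green); black bars are medians and vertical scatter within a row has no meaning. The list medians lie between 0.00 and 0.13, and Rasd2 (1.68) and Rasgrp4 (-0.86) lie outside the range of all lists but that of the Rassf and Rin effectors (-1.08 to 1.49), which Rasd2 also exceeds. The genes at both ends of that range had low counts and wide errors.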

How the data were processed

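Of the 8 samples, the 4 with RNA-seq were used. ATAC-seq was not analysed here. Per the labels' protocols, RNA was depleted of ribosomal RNA and read as 50 bp single-end reads. The authors' deposited table gives whole-number counts per gene without normalization, with mm9 positions, and an adjusted p-value for each gene, deposited without naming its comparison. The tools TopHat2 and DESeq and the build mm9 are named, per the submitters' processing notes. The sources used here do not name the counter, annotation or strand setting, so overlapping genes can share reads. Transcript lengths were not used, so levels are compared within a gene only.

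The test was edgeR 4.0.16 (R 4.3.3), its quasi-likelihood F-test fitted on genotype alone, filterByExpr (14274 genes kept, all 9 genes among them), TMM scaling and Benjamini-Hochberg adjustment over all tested genes. Such p-values reflect the spread of these libraries only, and that spread could be technical. Errors of log2 fold changes are standard errors, and log2 CPM used a prior count of 2. DESeq2 1.42.0 and limma 3.58.1 (voom), other scalings and filters, the replicate number as a block and leaving out each library were alternatives. DESeq2 without each library was chosen after seeing these data. A fit without a library assumes that the lone library left varies like the others. The scripts were tested on simulated data. The 9 genes, the 7 pathway lists and the 9 marker lists were chosen with earlier results of these data known. Named genes were the 9 genes, the gene of lowest p per direction in each pathway list, genes called by edgeR or DESeq2, the 3 genes most like Rasd2 and Rasgrp1 and the 2 neighbours on either side of Rasd2. Overlapping genes, Hdc, Kit, Cpa3, Snap25, Tubb3, S100b, Krt8, Epcam, Pecam1, Lars2, Dusp6 and Rassf4 were named after their values were seen. So were Krt20, Ctla4, Cd3d, Cd3e, Cd3g, Cd4, Il2ra, Ikzf2, Ms4a2, Mcpt1, Mcpt2 and Dusp4. Not every gene taken by this rule is reported here.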

Additional observations from a re-analysis of the deposited data

How the results depend on the processing

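With 2 libraries per genotype, the count of called genes depended on the tool and filter. Against 0 genes by the main edgeR test, 52 were called with no filter, 48 by DESeq2, 458 (3.21%) with the replicate block, 0 to 2 by edgeR without a single library, and by DESeq2 29 without KO replicate 1, 7 without KO replicate 2, 14 without WT replicate 1 and 22 without WT replicate 2. Other scalings, the stricter filter and limma-voom also called 0. Rasd2 and Rasgrp4 were called with no filter, by DESeq2 and with the replicate block, and in no fit without a library. The cause was not tested. Replicate numbers are not stated to mark a shared day or animal. Differences between replicate 2 and replicate 1 in KO and in WT correlated at 0.641 across 14274 genes, which are not independent, and the block leaves 1 residual degree of freedom. With that block 5 pathway genes were called, Rap2a, Grap2, Dusp2 and Dusp6 higher and Rin2 lower in KO, and 0 under every other alternative run.

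The signs of Rasd2, Rasgrp4, Rasgrp1 and Nf1 were the same in all 15 alternatives, and those of the other 5 genes turned in some. Without a library the log2 fold change ran from 1.55 to 1.85 for Rasd2, -0.96 to -0.79 for Rasgrp4, -0.11 to -0.059 for Rasgrp1, -0.36 to -0.13 for Nf1, -0.34 to 0.037 for Rasgrp3, -0.31 to 0.21 for Rasa2, -0.14 to 0.20 for Rasa1, -0.29 to 0.24 for Rasd1 and -0.02 to 0.09 for Rasgrp2. By DESeq2, Rasgrp3 had 0.031 without WT replicate 2 and Rasa2 -0.305 without KO replicate 2. With library totals as the only scaling Rasgrp1 had -0.11. The stricter filter removed Rasgrp3. Rasgrp3, Rasd1 and Rasd2 had the lowest counts of the 9 genes, 41 to 483 per library.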
